A study of Rattus norvegicus with 8 samples.

Results

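The members described here are 9 genes of ABC (ATP-binding cassette) efflux transporters, Abcb1a, Abcb1b, Abcc1, Abcc2, Abcc3, Abcc4, Abcg2, Abca1 and Abca7, measured in the kidney cortex of male and female rats. They were chosen by name as transporters that move drugs, conjugates or lipids out of cells, with earlier results of these data known. They are 9 of the 14737 genes that the array could be matched to by name. Their probes were those whose RefSeq accession belongs to one of these genes, and 13 of the 30367 different probes of the array did so. Of these, 12 were well above background on at least 4 arrays and were tested among 23425 probes, each of the 12 on 8 of 8 arrays. The remaining probe, A_64_P088800 of Abcc1, was well above background on 0 arrays. The study asked which transcripts of the rat kidney differ between the sexes. Cortical slices came from 4 male and 4 female adult Han Wistar rats (strain RCCHanTMWIST), 1 rat per array, and the 2 groups differed by sex alone in the labels. The animals were untreated, and both groups were housed and sampled alike. A cortical slice holds proximal and distal tubules, glomeruli and vessels, so that fewer cells of a type and less RNA per cell cannot be told apart.

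ABC transporters are membrane proteins that use the energy of ATP to push substrates out of the cell. In the proximal tubule, uptake carriers of the basolateral membrane bring drugs and organic anions in from the blood, and ABC pumps of the brush border pass them into the urine. P-glycoprotein, which rodents encode by the pair of genes Abcb1a and Abcb1b, exports hydrophobic cationic drugs, and Abcg2 (breast cancer resistance protein) exports sulfated conjugates and urate. The multidrug resistance proteins Abcc2 and Abcc4 are apical pumps for conjugates, cyclic nucleotides and organic anions, while Abcc1 and Abcc3 face the blood. Abca1 and Abca7 move phospholipid and cholesterol across membranes.

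The sequences upstream of the genes were taken from RefSeq (build GRCr8), in which 8 of the 9 members had an entry. Abcc3 had none. Shown are 3 of them: those of Abcb1b and Abca7, the genes with probes called higher in females, and that of Abcc2, the more even of the 2 members higher expressed in males. Each runs 5′ to 3′ along the coding strand, and only the part that lies outside the annotated gene is given. Capitals mark matches to the motifs searched on both strands, which in these stretches were CCAAT with its reverse complement ATTGG, further GGGCGG with its reverse complement CCGCCC, and finally AGGTCA with its reverse complement TGACCT.
Abcb1b, chr4:26280157-26280279, minus strand: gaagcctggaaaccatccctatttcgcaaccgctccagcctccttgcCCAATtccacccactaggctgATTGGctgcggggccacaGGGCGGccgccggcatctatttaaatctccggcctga
Abca7, chr7:10362095-10362239, minus strand: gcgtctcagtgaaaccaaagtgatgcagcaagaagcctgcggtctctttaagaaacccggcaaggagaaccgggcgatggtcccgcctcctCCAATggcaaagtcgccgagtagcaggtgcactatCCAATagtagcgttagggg
Abcc2, chr1:252613625-252613874, plus strand: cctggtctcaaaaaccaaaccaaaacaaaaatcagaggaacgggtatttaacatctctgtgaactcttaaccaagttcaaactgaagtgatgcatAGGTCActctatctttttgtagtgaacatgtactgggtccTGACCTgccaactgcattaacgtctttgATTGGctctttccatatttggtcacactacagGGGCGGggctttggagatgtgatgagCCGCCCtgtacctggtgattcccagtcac

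Motifs were counted in the 250 bases before the start of each promoter entry, a window that can lie within the annotated gene. All 250 bases did so for Abcb1a, Abcc4 and Abcg2, 127 for Abcb1b, 105 for Abca7, 90 for Abca1, 64 for Abcc1 and 0 for Abcc2. The counts and GC contents therefore mix sequence outside and inside the genes. CCAAT stood in 3 of 8 members (Abcb1b, Abcc2 and Abca7) and in 34.0% of 33469 rat promoters. Abcb1b held it at −203 and, on the opposite strand, at −182, and Abca7 held it at −159 and −124, counted from the start. GGGCGG, a GC box, stood in 8 of 8 members and in 30.5% of all promoters, and the members' windows were 45.2% (Abcc2) to 77.6% (Abcc4) GC. AGGTCA, the half-site of many nuclear receptors, occurred in Abcc2 alone among the members, at −155 and −115, and in 14.1% of all. TATAAA (12.9% of all) and TGTTCT (17.5% of all) were found in Abca1 alone among the members, and TTCNNNGAA (7.67% of all) in Abcc4 alone. Both forms of the BCL6 consensus (0.323% and 0.0538% of all) stood in 0 of these 8 windows. The BCL6 forms are special cases of TTCNNNGAA, the general motif of STAT proteins. A match is a run of letters in the window, and none of these was measured as a binding site.

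The 75th percentile of the signal, to which each array was scaled, lay between 5025 and 5944 in females and between 5685 and 6547 in males, and 73.8% to 79.1% of all probes were well above background. The proximal tubule list held its defining markers Slc34a1, Lrp2 and Slc5a2 on 8 of 8 arrays, and the mean of its 7 genes, as a log2 value above the 75th percentile, was 4.54 to 4.85 in females and 4.47 to 4.58 in males. The defining markers of the cortex label were thus present on every array. The 8 arrays shared 1 slide of 2 rows. Row 1 held females 3 and 4 and males 1 and 4, and row 2 held females 1 and 2 and males 2 and 3. Each of the 4 columns held 1 rat of each sex. Differences within rows are given beside each result, and those within columns where they bear on it. Values below are log2 signals relative to the 75th percentile of the array, in the order of replicates 1 to 4. Differences are log2 fold-changes, male minus female, with the SE and the adjusted p of limma. Since a probe has its own efficiency, levels were compared between rats and not between probes.

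Among the 12 probes, 2 were called at all, against 1.89% of all tested probes, and both were called higher in females at an adjusted p below 0.05 and a log2 fold-change of at least 1 in size, the probe of Abca7 and the second probe of Abcb1b (1.09% of all were called in that direction). Counted by the brightest probe alone, 1 of the 9 genes was called, Abca7. The members were chosen with earlier results of these data known, so that the shares of all probes describe them and test nothing. In males 0 of 12 were called, against 0.798% of all tested probes, while 5 of the 12 were higher in males and 3 higher in females at an unadjusted p below 0.05. The share of all tested probes at that unadjusted level is not given. Counts at it, here and below, are therefore not read as a result about the genes. By the adjusted p alone 4 of the 12 passed, against 8.06% of all: 2 probes were higher in females (4.67% of all) and 2, those of Abcg2 and Abcc2, higher in males (3.39% of all). The remaining 8 did not pass. The values of the sexes did not overlap for 4 of the 12 probes and for 18.5% of all probes. The log2 fold-changes of the 12 ran from −2.68 to 0.87 with a median of 0.29, and that of all tested probes had a median of −0.04.

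**Figure D1:**
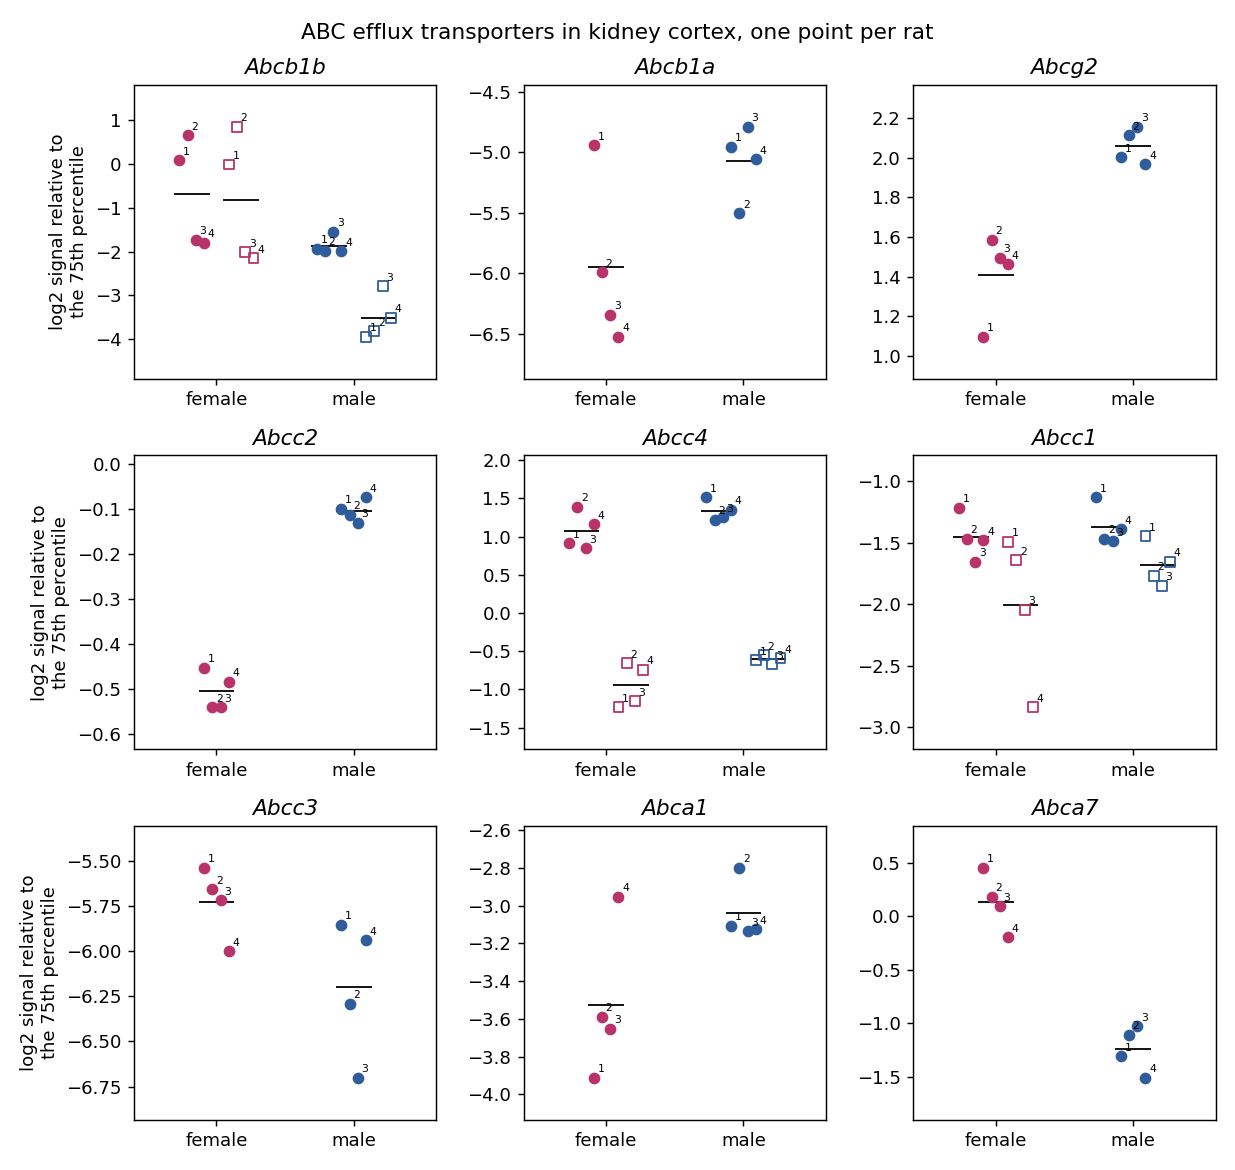
Log2 signal relative to the 75th percentile of the array (y axis, a separate scale for each gene) of the 9 transporters in 4 female and 4 male rats (x axis). Each point is 1 rat with its replicate number, filled circles are the brightest probe of the gene, open squares its second tested probe, and bars the means. Abca7, Abcg2 and Abcc2 separate the sexes, and Abcb1b splits the females into a high and a low pair.

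The P-glycoprotein gene Abcb1b was the most variable of the members. Its brighter probe, A_64_P010925, read 0.08, 0.66, −1.73 and −1.80 in the females and −1.93, −1.98, −1.55 and −1.99 in the males. Females 1 and 2 lay far above all other rats, females 3 and 4 lay between male 3 and the other males, and the groups overlapped. The difference was −1.17 (SE 0.543, 95% confidence interval −2.41 to 0.08, adjusted p = 0.222), and the two-sided exact permutation test gave p = 0.114. The fits without 1 rat gave −1.53 to −0.71, the smallest without female 2. The SD was 1.26 among the females, which exceeded the female SD of 99.4% of the probes in the fit, and 0.213 among the males.

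The second probe of Abcb1b, A_64_P039888, read −0.01, 0.85, −2.01 and −2.15 in the females and −3.94, −3.81, −2.79 and −3.51 in the males. Here every female lay above every male, by 0.63 between the nearest pair, and the same females 1 and 2 stood 2.001 above the other two. The difference was −2.68 (SE 0.671, 95% confidence interval −4.22 to −1.14), a 6.41-fold higher signal in females (adjusted p = 0.0476, exact permutation p = 0.0286, the smallest that 4 against 4 allows). The call was near its threshold: it was kept in 2 of the 8 fits that left out 1 rat, those without female 3 or female 4, and the adjusted p of the 8 fits ran from 0.0323 to 0.113. Across the 8 rats the 2 probes correlated with a Pearson r of 0.944, and r was 0.979 after the mean of each sex was subtracted. Both probes thus ranked the females alike but placed the males differently: at the second probe all of them lay below females 3 and 4, and at the brighter probe 3 of them did. The files hold no probe sequences, so that which transcripts or exons the probes read, and whether one also reads the close paralogue Abcb1a, was not tested.

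The high pair of Abcb1b was also the pair of females in row 2 of the slide. In row 1 the difference was −0.20 at the brighter probe and −1.64 at the second, and in row 2 it was −2.13 and −3.72. The interaction of sex and row had an unadjusted p of 0.000746 at the brighter probe and 0.0111 at the second, and an adjusted p of 0.415 and 0.512. Over 23400 probes, 1 passed this interaction test at an adjusted p below 0.05, and 9.17% had an unadjusted p below 0.05. Within the 4 columns the second probe was lower in the male each time (differences of −4.36 to −0.77), and the brighter one in 3 of 4 (−2.65 to 0.18). With the row as a block the limma fit gave an adjusted p of 0.0191 at the second probe and 0.115 at the brighter one. With the column as a block, a fit chosen after seeing the data, the second probe had an adjusted p of 0.0956. With 2 females per row, the row and the individual rat cannot be told apart. The mean of the adipose markers was highest in the same females, but stood clearly apart in female 1 alone. The mean of 3 adipose markers (Adipoq, Lep and Cfd, of 4 listed) was −3.46, −4.18, −5.06 and −4.49 in the females and −5.35 to −4.89 in the males. Their summed signal was 4888, 2928, 1849 and 2589 in the females and 1779 to 2917 in the males, so that female 2 was level with the highest male. Adipoq and Cfd were well above background on 8 of 8 arrays, but Lep on only 2 of 4 female and 3 of 4 male arrays. Cfd varied most among the females (SD 1.53), against 0.41 for Adipoq and 0.22 for Lep. The part of adipose RNA in the values of Abcb1b was not tested. The mean of 6 tubular injury markers was −1.16, −1.19, −1.18 and −0.71 in the females and −1.36 to −1.02 in the males. Females 1 and 2 did not stand apart in this mean. The part of tubular injury in the values of Abcb1b was not tested.

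**Figure D2:**
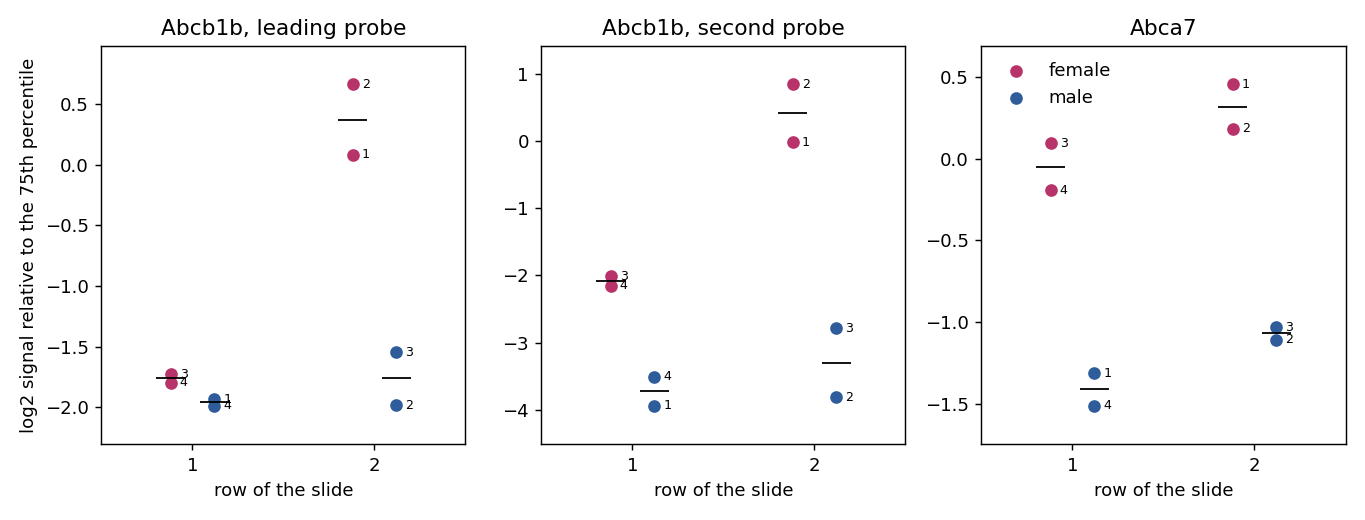
Log2 signal relative to the 75th percentile (y axis) of both Abcb1b probes and of Abca7 in the 2 rows of the slide (x axis), with 1 point per rat, its replicate number and the mean of each pair as a bar. For Abcb1b the females of row 2 are high and those of row 1 are near the males or between, whereas the sexes of Abca7 are as far apart in row 1 (−1.36) as in row 2 (−1.38).

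Abcb1a, the other P-glycoprotein gene and the neighbour of Abcb1b on chromosome 4, had a dim probe, A_44_P279083. It read −4.94, −5.99, −6.34 and −6.52 in the females and −4.95, −5.50, −4.79 and −5.06 in the males. Female 1 lay among the males, and the other 3 females lay below all of them. The difference was 0.87 (SE 0.331, 95% confidence interval 0.11 to 1.63, adjusted p = 0.145, exact permutation p = 0.114), opposite in sign to that of Abcb1b, and did not pass. Without female 1 it was 1.21 with an adjusted p of 0.0177. It was 1.43 in row 1 and 0.32 in row 2. The next gene on the other side of Abcb1b, Abcb4, which exports phospholipid into bile, differed by 0.14 (SE 0.145, adjusted p = 0.580).

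Abcg2, the breast cancer resistance protein, was higher expressed in males. Its probe, A_64_P121786 on chromosome 4, read 1.098, 1.586, 1.497 and 1.463 in the females and 2.002, 2.113, 2.154 and 1.967 in the males. The lowest male lay 0.38 above the highest female. The difference was 0.65 (SE 0.113, 95% confidence interval 0.39 to 0.91), 1.57-fold, with an adjusted p of 0.0126 and an exact permutation p of 0.0286. It was 0.50 in row 1 and 0.79 in row 2 and 0.38 to 0.90 within the columns, and stayed below the 2-fold threshold of a call.

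Abcc2, the apical multidrug resistance protein 2, was male-dominant by a small and even step. Its probe, A_43_P11580 on chromosome 1, is printed 10 times on the array, and the mean of these spots read −0.45, −0.54, −0.54 and −0.48 in the females and −0.10, −0.11, −0.13 and −0.07 in the males. The groups were separated by 0.32, and the SDs, 0.0436 in females and 0.0239 in males, were among the smallest 4.65% and 0.704% of all tested probes. The part of this averaging over spots in the small spread between rats was not tested. The difference was 0.40 (SE 0.0582, 95% confidence interval 0.27 to 0.53), or 1.32-fold, with an adjusted p of 0.00627 and an exact permutation p of 0.0286, and it was 0.43 and 0.38 in the 2 rows and 0.35 to 0.47 within the columns.

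Abcc4, the apical pump for cyclic nucleotides and organic anions, had 2 tested probes that pointed the same way without passing. The brighter, A_64_P057340 on chromosome 15, read 0.92, 1.39, 0.85 and 1.16 in the females and 1.51, 1.22, 1.26 and 1.35 in the males. Female 2 lay above 3 of the males, so that the groups overlapped. The difference was 0.26 (SE 0.131, 95% confidence interval −0.04 to 0.56, adjusted p = 0.261, exact permutation p = 0.143), with 0.43 in row 1 and 0.08 in row 2. The second probe, A_64_P093599, read −1.23, −0.66, −1.15 and −0.74 in the females and −0.62, −0.55, −0.67 and −0.59 in the males, a difference of 0.34 (SE 0.136, adjusted p = 0.165, exact permutation p = 0.0571), with 0.34 and 0.33 in the rows. At this probe female 2 alone reached the range of the males, by 0.01. The 95% confidence interval of the second probe, 0.03 to 0.65, and that of the brighter one overlapped widely.

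Of the pumps of the basolateral membrane, Abcc1 differed least. Its brighter probe, A_64_P117031 on chromosome 10, lay between −1.66 and −1.22 in the females and between −1.49 and −1.13 in the males. The difference was 0.09 (SE 0.117, 95% confidence interval −0.18 to 0.35, adjusted p = 0.697, exact permutation p = 0.514), with 0.31 in row 1 and −0.14 in row 2. The second probe, A_64_P126103, differed by 0.33 (SE 0.272, adjusted p = 0.503), with 0.89 in row 1 and −0.24 in row 2, and female 4, at −2.84, lay furthest from the other rats there.

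Abcc3, the exporter of glucuronides and bile salts, had a dim probe, A_64_P033761 on chromosome 10. It read −5.54, −5.66, −5.72 and −6.00 in the females and −5.85, −6.29, −6.70 and −5.94 in the males. Males 2 and 3 were the lowest rats, and males 1 and 4 lay among the females. The difference was −0.47 (SE 0.192, 95% confidence interval −0.91 to −0.03, adjusted p = 0.172, exact permutation p = 0.0857), with −0.04 in row 1 and −0.90 in row 2. The fits without 1 rat gave −0.58 to −0.30, the smallest without male 3.

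Abca7, a transporter of phospholipid that is known for its part in phagocytosis, was the member with the firmest difference. Its probe, A_44_P186951 on chromosome 7, read 0.45, 0.18, 0.09 and −0.19 in the females and −1.31, −1.11, −1.03 and −1.51 in the males. The lowest female stood 0.83 above the highest male. The difference was −1.37 (SE 0.155, 95% confidence interval −1.73 to −1.02), 2.59-fold higher in females, with an adjusted p of 0.00219 and an exact permutation p of 0.0286. The 2 rows gave −1.36 and −1.38, the 4 columns −1.76 to −0.91, and the fits without 1 rat gave −1.48 to −1.27.

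Its relative Abca1, which loads cholesterol onto apolipoprotein A-I, went the other way without passing. The probe A_44_P323106 on chromosome 5 read −3.91, −3.59, −3.65 and −2.95 in the females and −3.11, −2.80, −3.13 and −3.12 in the males. Female 4 lay above 3 of the males, and the other females lay below all of them. The difference was 0.49 (SE 0.194, 95% confidence interval 0.04 to 0.93, adjusted p = 0.162, exact permutation p = 0.114), with 0.19 in row 1 and 0.78 in row 2, and without female 4 it was 0.68 with an adjusted p of 0.0204.

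**Figure D3:**
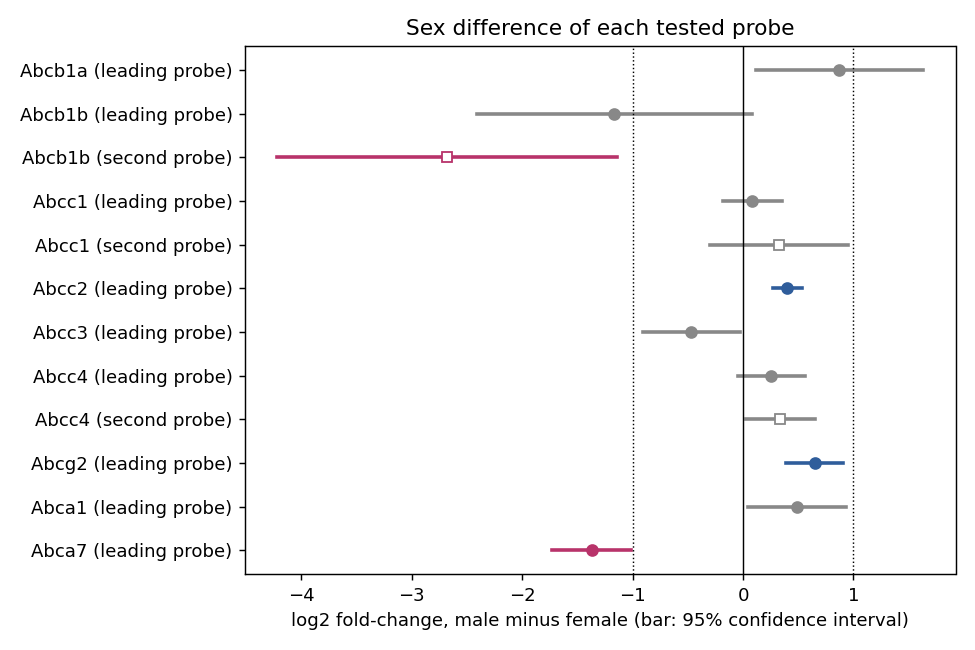
Log2 fold-change, male minus female (x axis), of the 12 tested probes (y axis) with 95% confidence intervals. Circles are the brightest probe of a gene and squares the second, dotted lines mark a log2 fold-change of 1 in size, and color marks an adjusted p below 0.05 (red higher in females, blue in males). Abca7 and the second probe of Abcb1b lie beyond −1, Abcg2 (0.65) and Abcc2 (0.40) lie between 0 and 1, and gray probes did not pass.

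For the genes with a called probe, the genes most like the brightest probe across the 8 rats were looked up among 13137 probes of other named genes that were well above background on all arrays. These correlations describe 8 shared arrays, and no p is given. Abca7 was followed most closely by Cmtm3 (r = 0.998), Epb41l4b (r = 0.992) and C13h1orf116 (r = 0.991). Cmtm3 read −3.63, −3.94, −4.06 and −4.29 in the females and −5.40, −5.26, −5.21 and −5.55 in the males, which is the order of the rats in Abca7. Its difference was −1.38 (adjusted p = 0.00173), and those of Epb41l4b and C13h1orf116 were −0.71 and −0.67. After the mean of each sex was subtracted, Snx14 (r = 0.982), Cmtm3 (r = 0.980) and Crls1 (r = 0.979) were most like Abca7, so that Cmtm3 followed it within the sexes too.

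Abcb1b was followed by Prnd (r = 0.986, Spearman's rho 0.690), Dnajb2 (r = 0.985) and Lsm3 (r = 0.968), and within the sexes by Dnajb2 (r = 0.978), Prnd (r = 0.977) and Cited4 (r = 0.974). Prnd read −6.71 and −6.63 in females 1 and 2 and −7.52 to −7.41 in the other 6 rats. Dnajb2, a co-chaperone, was 0.74 and 0.78 in females 1 and 2 and 0.52 to 0.57 in the others. Females 1 and 2 thus stood above the other 6 rats in both genes, as they did at the brighter probe of Abcb1b. The ranks were alike too: rho was 0.905 for Dnajb2, and within the sexes it was 0.976 for Dnajb2 and 0.952 for Prnd. How far the likeness rests on the step between 2 females and the rest was not tested. Neither Prnd nor Dnajb2 passed between the sexes (differences −0.42 and −0.11, adjusted p 0.238 and 0.424).

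The other ABC genes were listed by role, 38 in all, of which 30 were on the array by name and 26 were tested. Of these 26, 0 were called higher in females by limma (1.09% of all tested probes), with 3 at an unadjusted p below 0.05. In males 2 were called higher (0.798% of all). By the adjusted p alone 4 passed (8.06% of all), each higher in males, and 22 did not. The median difference of the 26 was 0.01. Abcc8, the sulfonylurea receptor subunit of potassium channels, was −5.56, −5.89, −5.61 and −6.22 in the females and −3.32, −4.26, −3.35 and −3.64 in the males. Each male lay above each female, and the difference of 2.18 (SE 0.232, adjusted p = 0.00181) was 4.52-fold. Abcb11, the bile salt export pump, was well above background on 0 female and 4 male arrays. Its signal was at least 2.23-fold higher in males. This bound takes, for each female array, the higher of its lowest signal well above background and the probe's own signal. Abcb11 was admitted to the test by its male arrays alone, so that its p is not given. Without it 25 other ABC genes were tested, 1 was called and 3 passed the adjusted p. Abca4, a flippase of retinoids, was 0.53 higher (SE 0.123, adjusted p = 0.0386) and Abcd4, of lysosomal cobalamin transport, 0.34 higher in males (SE 0.0749, adjusted p = 0.0330).

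By group, 1 of 5 other drug, bile salt and conjugate transporters passed the adjusted p, Abcb11, which was admitted by its male arrays alone. So did 1 of 4 other lipid and sterol transporters (Abca4), 1 of 11 organelle transporters (Abcd4) and 1 of 3 channels and channel regulators (Abcc8). Of 3 ABC proteins without membrane domains 0 passed, and 0 had an unadjusted p below 0.05. Among all tested probes 8.06% passed. The mitochondrial transporter Abcb10 had the largest difference among those that did not pass, −1.66 (SE 0.465, adjusted p = 0.0668), with no overlap between the sexes. Abcc5, a pump for cyclic nucleotides, had −0.31 (SE 0.0834, adjusted p = 0.0590), and Abcg1, which exports cholesterol to high-density lipoprotein, had 0.07 (SE 0.333, adjusted p = 0.917).

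**Figure D4:**
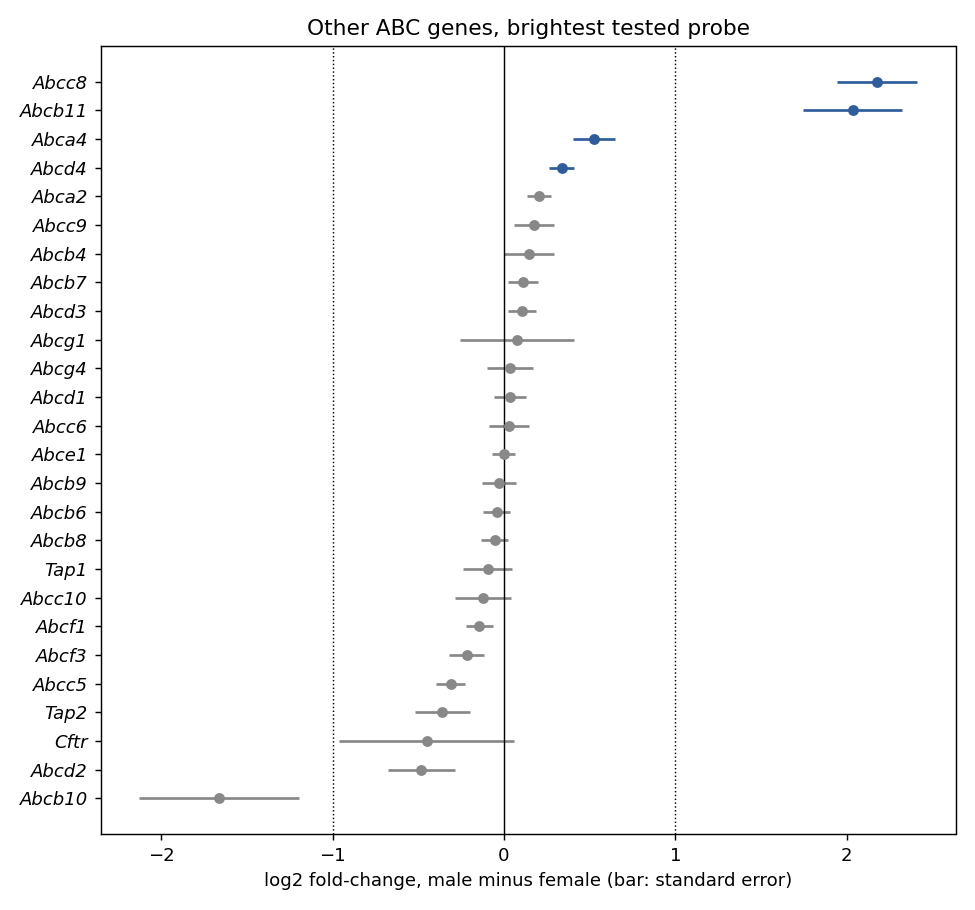
Log2 fold-change, male minus female (x axis), of the brightest tested probe of 26 other ABC genes (y axis), with the SE as a bar. Dotted lines mark a log2 fold-change of 1 in size, and blue marks an adjusted p below 0.05. Abcc8 (2.18) and Abcb11 lie beyond 1, where the value of Abcb11 is the fitted one and its signal was not well above background in females.

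Of 20 tested transcription factors that are known to act on ABC genes, 1 passed the adjusted p (8.06% of all probes did), Esr1, the estrogen receptor alpha, which was called higher in males by 1.67 (SE 0.108, 3.19-fold, adjusted p = 0.000238). It read −7.45 to −7.25 in the females and −5.89 to −5.48 in the males, which did not overlap. The liver X receptor Nr1h3, a known activator of Abca1, had 0.35 (SE 0.0947, adjusted p = 0.0589), and the pregnane X receptor Nr1i2 −0.20 (SE 0.0854, adjusted p = 0.182). The largest difference that did not pass was that of Nr1i3, the constitutive androstane receptor (−1.21, SE 0.531, adjusted p = 0.198). Of 6 scaffold and membrane-anchor proteins 0 passed in limma and 1 had an unadjusted p below 0.05, Ezr (−0.24, SE 0.0831, adjusted p = 0.114). Of 6 cholesterol efflux partners 0 passed and 2 had an unadjusted p below 0.05, among them Apoe (0.36, SE 0.128, adjusted p = 0.125).

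Of the 10 listed carriers of tubular drug uptake and exchange, 5 passed the adjusted p, where 8.06% of all probes did. Higher in females were Slc22a7 (Oat2, −5.12, SE 0.325) and Slco1a6 (−2.15, SE 0.341), and higher in males were Slco1a1 (7.40, SE 0.650, well above background on 3 of 4 female arrays), Slc22a2 (Oct2, 0.62, SE 0.129) and Slc22a6 (Oat1, 0.38, SE 0.0690). Slc22a8 (Oat3) had 0.22 (SE 0.0742, adjusted p = 0.113). The difference of Abcc2, 0.40, was thus of the size of that of Slc22a6, and Abcg2, 0.65, of that of Slc22a2.

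Markers of cell types were read on the same arrays as follows. In the lists of distal convoluted tubule, collecting duct, endothelium, leukocyte and macrophage, red blood cell, adipose, adrenal and tubular injury 0 genes passed the adjusted p in limma, while 3 of 6 collecting duct genes, 2 of 6 leukocyte genes, 1 of 3 adipose genes and 2 of 6 injury genes had an unadjusted p below 0.05. The adrenal markers Star, Cyp11b1 and Cyp11b2 were not well above background on 4 arrays. Higher in females, below 2-fold, were Cubn of 7 proximal tubule genes (−0.59, adjusted p = 0.00452), Cldn16 of 2 thick ascending limb genes (−0.62, adjusted p = 0.0287) and Podxl of 5 podocyte genes (−0.27, adjusted p = 0.0354). The mean of the thick ascending limb list was 1.91 to 1.96 in females and 1.28 to 1.67 in males (summed signal 321340 to 354050 and 294240 to 347410). In the liver list, Fgb (−1.35, adjusted p = 0.000353) and Ttr (−5.53, adjusted p = 0.00127, well above background on 2 of 4 male arrays) were called higher in females, whereas Alb (0.53, adjusted p = 0.704) and Apoa2 (0.00, adjusted p = 0.999) did not pass, and the summed signal of the 4 genes was 2917 to 5286 in females and 796 to 1202 in males. The marker genes that passed, Cubn, Cldn16, Podxl, Fgb and Ttr, were each higher in females, the direction of Abca7 and Abcb1b. Among all tested probes 8.06% passed, 4.67% higher in females and 3.39% higher in males. At the unadjusted level, the 3 collecting duct, 2 injury and 1 adipose genes were higher in females. The 2 leukocyte genes went 1 each way. Not all lists were higher in females: the median difference was 0.28 for leukocyte and macrophage genes and 0.18 for the 1 tested distal convoluted tubule gene. The part of any of these in the differences of Abca7 and Abcb1b was not tested.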

How the data were processed

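Kidney cortex RNA of 8 rats, 4 of each sex, was hybridized to one-color Agilent arrays (Cy3), 1 rat per array. Groups and replicate numbers came from the labels. The authors deposited the signal intensity of every spot from Feature Extraction 10.7.3.1, background-subtracted and not normalized between arrays. The authors also deposited log2 values with one distribution on all arrays (median 8.97). They list limma 3.8.2 in their processing notes.

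Of 62976 spots, 58717 were not controls. After removal of outlier spots, signals were put on the log2 scale, scaled to the 75th percentile of their array and averaged per probe. Probes with 4 or more of 8 arrays well above background were fitted with limma 3.58.1 in R 4.3.3 (male minus female, no covariate), with Benjamini-Hochberg adjustment over 23425 probes. A call needed an adjusted p below 0.05 and a log2 fold-change of at least 1 in size. The exact permutation test was two-sided over 70 assignments. The fit was tested on simulated data. Intervals are at 95% confidence. No spot was saturated (0 on each array), and the number of arrays limits the precision.

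Genes were named through RefSeq accessions (17514 of 30367 probes), and the brightest probe leads. Chromosomes and promoters are those of RefSeq (GRCr8), since the array design predates that build. The text names all 9 members, from every other list the genes that passed the adjusted p or up to 3 with the largest differences, and the 3 genes most like a member with a called probe. Abcb4, Abcg1, Nr1h3, Nr1i2, Slc22a8 and the markers that did not pass were added outside this rule, and some listed genes are not reported here. The members and lists were chosen with earlier results of these data known. Alternatives were normexp background correction (offset 16), the authors' log2 values, quantile normalization, no filter or one at 8 arrays, outlier spots kept, a trended robust prior, array weights, the replicate number or slide row or column as a block, and leaving out each array.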

Additional observations from a re-analysis of the deposited data

Results flagged for a closer look

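In 24 groups of 4 values (12 probes in 2 sexes), 2 had a rat whose gap to the nearest other rat took up more of the range of the group than Dixon's 95% critical value allows, where chance gives about 1 in 20, or 1.2 groups. Male 3 read −1.55 at the brighter probe of Abcb1b (the P-glycoprotein gene), against −1.99 to −1.93 in the other males. It also was the highest male at the second probe, at −2.79. Male 2 read −2.80 at Abca1, the cholesterol exporter, against −3.13 to −3.11 in the other males.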

How the results depend on the processing

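Across the 10 alternatives that kept all rats, Abca7 (−1.40 to −1.35, adjusted p 0.000649 to 0.0127), Abcg2 (0.61 to 0.68, adjusted p 0.00418 to 0.0325) and Abcc2 (0.39 to 0.41, adjusted p 0.00226 to 0.0388) kept their direction and passed in each, and the other brightest probes did not pass in any. All tested probes gave 193 to 276 calls in females and 137 to 223 in males. The second probe of Abcb1b fell out of the call with no filter on dim probes (−2.68, adjusted p = 0.0818), a trended robust prior (−2.68, adjusted p = 0.0537), array weights (−2.51, adjusted p = 0.0515) and the replicate block (−2.68, adjusted p = 0.104), each of which left 1 member probe called higher in females. The unfiltered fit adjusts over more probes, and the cause of the others was not tested. The remaining 6 alternatives kept the call, and the slide row block gave the lowest adjusted p, 0.0191. Same-numbered deviations of the sexes correlated at −0.01 to 0.13, and 2 of 4 correlated best with their own number. With 4 rats per sex this cannot decide whether the replicate numbers pair the rats. The replicate block changed no other call of a member. With 1 rat left out, the ranges were −3.12 to −2.12 for that probe (adjusted p 0.0323 to 0.113), −1.53 to −0.71 for its brighter probe, −0.58 to −0.30 for Abcc3, 0.68 to 1.21 for Abcb1a, 0.36 to 0.68 for Abca1, and 1 to 2 and 0 to 1 member probes called higher in females and males. Fits of 1 slide row, with 2 rats per sex, and with the slide column as a block were chosen after seeing the data. The column block left Abca7 (adjusted p = 0.0235), Abcg2 (0.0405) and Abcc2 (0.0487) past the threshold but not the second probe of Abcb1b (−2.68, 0.0956), with 1 member probe called higher in females. Row 1 alone gave 0.43 for Abcc2 (adjusted p = 0.204), 0.50 for Abcg2 (0.184), −1.36 for Abca7 (0.134) and −1.64 for the second probe of Abcb1b (0.134), with 0 member probes, 1 probe in females and 6 in males called. Row 2 alone gave 0.38 for Abcc2 (0.194), 0.79 for Abcg2 (0.156), −3.72 for the second probe of Abcb1b (0.0576) and −0.14 for Abcc1, the reverse of 0.09 (0.601), while Abca7 passed (−1.38, 0.0414), with 1 member probe in females and 173 probes in females and 79 in males called. Fewer rats entered the fits of 1 row. Dim probes (Abcb1a, Abcc3) are limited by signal over background.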
